A study of Mus musculus with 8 samples.

Results

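Axon guidance ligands and receptors were examined in quiescent neural stem cells (qNSCs) treated with bafilomycin A (BafA), a blocker of the vacuolar proton pump that acidifies lysosomes. The genes were taken by symbol: semaphorins (Sema), plexins (Plxn), EphA and EphB receptors, ephrin-A and ephrin-B ligands (Efna, Efnb), Slits, Robos, netrins (Ntn) and Unc5 receptors. The array carries 64 such genes, and the 60 with a signal value on all 8 arrays were kept, of 20473 probes tested and 14881 of these that carry a gene symbol. Each of the 60 had 1 probe. The other 4 (Sema4d, Robo1, Sema3g and Unc5d) had a value on 2 to 7 arrays and never exceeded 2.0 in the deposited values, on a scale where the median probe of an array is 25. The dimmest gene inside the rule was Epha6, with a deposited mean of 1.79.

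Total RNA was hybridised to single-colour oligonucleotide arrays in 4 groups of 2: qNSCs with BafA for 24 h, control qNSCs at 24 h, qNSCs with BafA for 4 h, and control qNSCs at 4 h. All groups were cells of 1 line that had been taken from ventral telencephalon of E14.5 embryos (ICR mice), then passaged and stored frozen, so they stand for an embryonic line in culture and not for adult stem cells in the brain. All groups had spent 3 days in BMP-containing medium without EGF to enter quiescence, and the medium was then replaced by the same BMP-containing medium, with BafA added at 20 nM in the treated groups. Nothing states that the paired arrays came from separate cultures, so every p-value below measures the spread between arrays, which may be technical.

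Guidance ligands steer growing axons and migrating cells by attraction or repulsion. Most secreted class 3 semaphorins act through plexins with neuropilins as co-receptors, whereas most membrane-bound semaphorins bind plexins directly. Ephrins and Eph receptor tyrosine kinases signal between touching cells and in both directions, netrins act through Dcc, Neo1 and the repulsive Unc5 receptors, and Slits repel through Robos. In neurogenic regions of the brain, Slits are also known to guide migrating neuroblasts, and ephrins to act on the stem cells themselves.

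A 24 h exposure to BafA moved guidance genes in both directions, among receptors and ligands. Unc5b and Epha3 had the largest increases and Epha5 and Plxnd1 the largest decreases. The RefSeq promoters of these 4 genes (mouse build GRCm38.p6, 250 bases before and 50 after the annotated start, on the strand of the gene) are shown because these genes lie at the ends of the response. Capitals mark the bases from the start site on.
Unc5b, chr10:60831532-60831831, minus strand: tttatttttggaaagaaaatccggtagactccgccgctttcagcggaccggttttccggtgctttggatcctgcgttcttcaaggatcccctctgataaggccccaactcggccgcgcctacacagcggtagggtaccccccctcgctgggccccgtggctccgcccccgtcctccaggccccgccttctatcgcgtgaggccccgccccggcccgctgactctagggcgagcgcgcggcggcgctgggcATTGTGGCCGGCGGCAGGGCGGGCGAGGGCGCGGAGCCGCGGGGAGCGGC
Epha3, chr16:63864126-63864425, minus strand: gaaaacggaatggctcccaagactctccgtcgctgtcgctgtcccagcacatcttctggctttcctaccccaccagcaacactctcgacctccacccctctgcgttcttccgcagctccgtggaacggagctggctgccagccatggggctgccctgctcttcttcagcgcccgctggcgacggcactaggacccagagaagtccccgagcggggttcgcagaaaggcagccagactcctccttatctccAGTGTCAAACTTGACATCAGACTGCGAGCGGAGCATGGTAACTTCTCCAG
Epha5, chr5:84417333-84417632, minus strand: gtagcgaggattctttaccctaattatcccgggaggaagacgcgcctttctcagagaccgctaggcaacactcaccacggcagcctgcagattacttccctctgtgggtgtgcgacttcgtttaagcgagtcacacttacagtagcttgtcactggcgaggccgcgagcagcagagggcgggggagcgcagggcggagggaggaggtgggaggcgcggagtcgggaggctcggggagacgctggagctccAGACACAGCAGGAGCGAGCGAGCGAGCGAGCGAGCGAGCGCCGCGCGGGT
Plxnd1, chr6:115994956-115995255, minus strand: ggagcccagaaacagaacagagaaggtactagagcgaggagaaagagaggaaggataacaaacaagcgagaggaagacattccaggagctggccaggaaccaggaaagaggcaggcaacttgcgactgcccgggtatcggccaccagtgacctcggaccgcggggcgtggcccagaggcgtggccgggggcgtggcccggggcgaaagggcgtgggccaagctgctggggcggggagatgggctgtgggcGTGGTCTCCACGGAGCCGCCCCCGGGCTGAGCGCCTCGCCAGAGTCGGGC
The 4 promoters were rich in G and C, at 69.7% (Unc5b), 60.7% (Epha3), 64.3% (Epha5) and 67.0% (Plxnd1), against a median of 52.7% over 32851 promoter entries. They held 36, 18, 30 and 23 CG dinucleotides in the same order, against a median of 7. This was not particular to these 4. The uncalled Efna5 had 73.3% and 38 CG and the uncalled Ephb2 68.7% and 24 CG, whereas the uncalled Sema3a had 41.3% and 2 CG. On either strand, none of the 4 held CACGTG, the core of the motif of basic helix-loop-helix factors such as TFEB and present in 7.15% of all entries, TGANTCA, the AP-1 motif in 7.81%, or TATAAA, in 13.6%. Among 10 guidance genes that were higher after BafA, 0 had CACGTG, 1 had TGANTCA (Sema4c) and 1 had TATAAA (Efnb2). Of the 8 lower genes looked up, 1 (Sema6d) had CACGTG and 0 had the other motifs, and of 34 uncalled genes 4 had the first motif, 1 the AP-1 motif and 1 the TATA motif. A match is a match of letters only, and the absence of one says nothing beyond these 300 bases.

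After 24 h, 10 of the 60 genes rose and 9 fell (limma, adjusted p under 0.05). Over all probes 14.6% were called higher and 12.8% lower. In either direction this was 31.67% of the guidance genes and 27.3% of all probes, so the share of guidance genes was near that of all probes. The median log2 fold change was 0.01 over the 60 genes and 0.02 over all probes. All 19 called genes had BafA arrays that did not overlap the control arrays of 24 h, but the call used these same arrays. Uncalled genes such as Efnb1, Ephb2 and Sema5a did not overlap either, and the share over all probes was not counted. At the 2-fold rule that the methods name, in the deposited values, 10 of the 60 guidance genes passed at 24 h (6 higher and 4 lower). This is a larger share than the 9.75% of all probes, and the excess was not tested. Epha7, Sema3c and Sema3d were among the 10, with deposited means under 10 in both groups of 24 h. In bulk RNA, fewer cells of a type and less RNA per cell cannot be told apart.

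**Figure D1:**
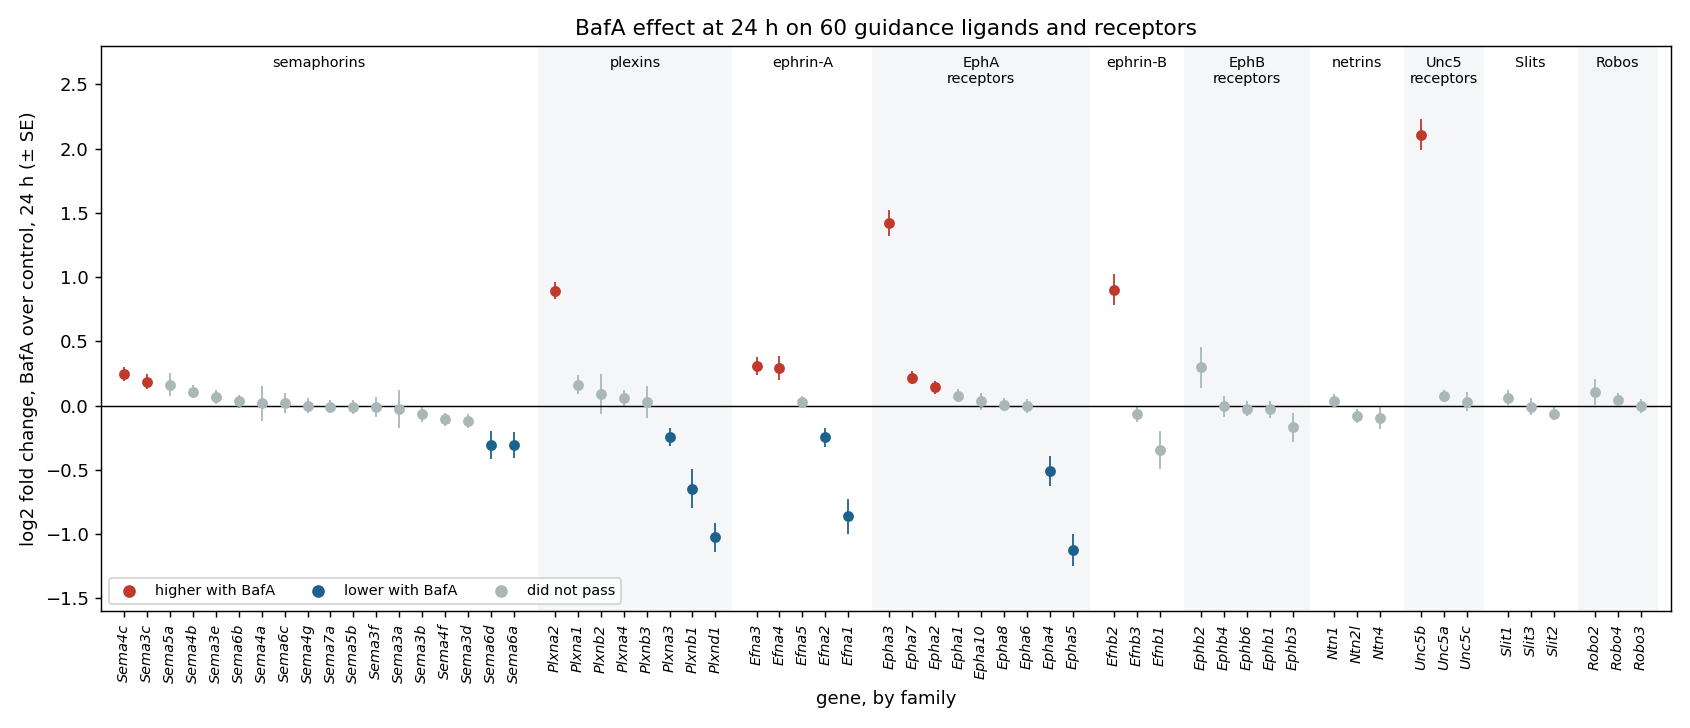
Log2 fold change of BafA over control at 24 h (vertical axis) for each of the 60 guidance genes, grouped by family along the horizontal axis; points are the fitted values, bars 1 SE, red higher, blue lower and grey not past the test. Unc5b at 2.11 and Epha5 at -1.12 mark the ends, and 41 genes lay between -0.35 and 0.30 without passing.

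Unc5b, a repulsive netrin receptor, had normalized signals of 158 and 187 on the BafA arrays of 24 h, against 36.0 and 43.9 on the control arrays of 24 h. It had 45.6 and 49.5 with BafA at 4 h, against 39.2 and 41.4 in controls at 4 h. The late BafA arrays thus stood far above all 6 others. The log2 fold change at 24 h was 2.11 ± 0.12 (SE; adjusted p = 1.43e-12), rank 73 from the top of 20473 probes. In the deposited values the means were 328 with BafA and 55.4 without, a ratio of 5.92. At 4 h the log2 fold change was 0.24 ± 0.12 and did not pass (adjusted p = 0.553). The other Unc5 genes measured, Unc5a and Unc5c, did not pass at 24 h, with log2 fold changes of 0.08 and 0.03.

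Among the ligands and partners of Unc5b, Ntn1, the best known netrin, was near the bottom of the scale, at 14.5 and 12.9 with BafA at 24 h, against 13.2 and 13.4 in controls. Ntn2l (now Ntn3) did not pass at 24 h either. Ntn4, a laminin-related netrin, was the brightest of the 3 netrins measured. Ntn4 had 20.1 and 19.7 with BafA at 24 h, against 23.8 and 18.9 in controls, which overlapped. At 4 h it had 32.8 and 31.5 with BafA, against 44.7 and 38.5 in controls, so that both BafA arrays were below both control arrays. This was the 1 call among the 60 genes at 4 h (log2 fold change -0.37 ± 0.09, adjusted p = 0.0301). The call was lost without control 4h replicate 1 (-0.26, adjusted p = 0.438), without BafA 4h replicate 2 (adjusted p = 0.156) and without either late BafA array (0.105 each), and with scan setting as a block (0.108). The netrin receptors outside the Unc5 family differed from Unc5b. Neo1, which binds netrins and repulsive guidance molecules, had 48.6 and 50.3 with BafA at 24 h, against 82.4 and 66.3 in controls (log2 fold change -0.58 ± 0.11, adjusted p = 0.000336). Dcc, the attractive netrin receptor, was near the floor in all groups, at 14.4 and 13.5 with BafA and 14.2 and 13.7 in controls at 24 h.

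**Figure D2:**
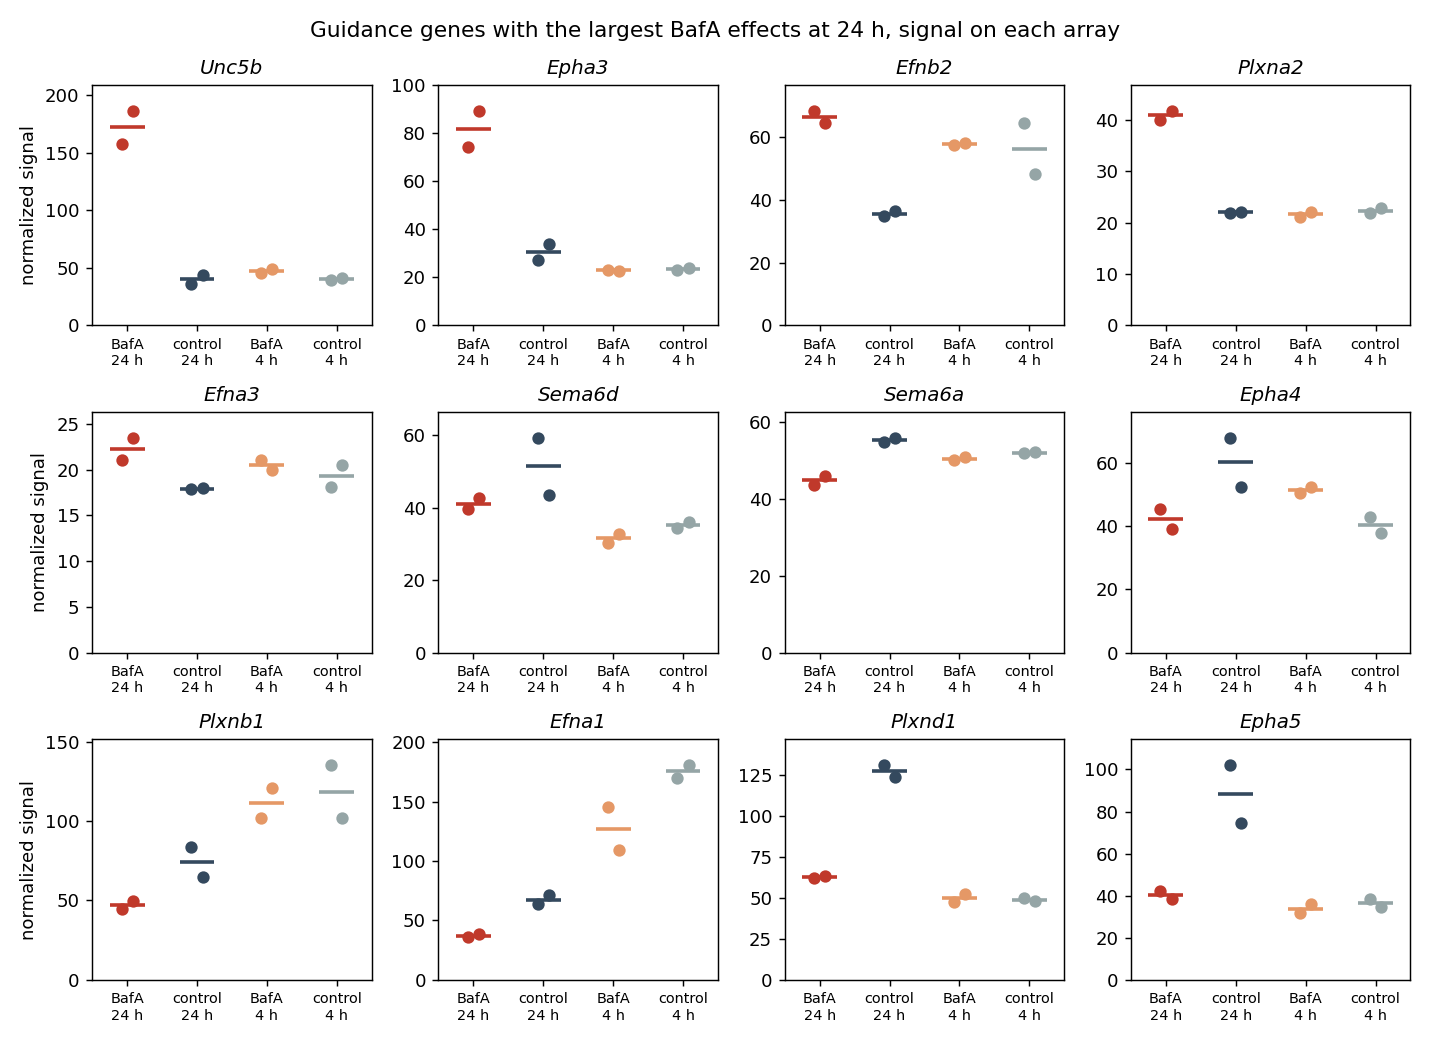
Normalized signal (linear scale from 0) on each of the 8 arrays for the 12 guidance genes with the largest absolute log2 fold change at 24 h among those called; points are arrays, horizontal lines group means, and groups run from BafA 24 h to control 4 h. Unc5b, Epha3 and Plxna2 are high in the BafA arrays of 24 h alone, whereas Plxnd1 and Epha5 are high in the control arrays of 24 h alone.

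The EphA receptors, which mostly bind ephrin-A ligands, included 3 genes that rose and 2 that fell at 24 h of 9 measured. This was 55.56% of the family, against 27.3% of all probes. Families are small, and no family share was tested against that of all probes. Epha3 had 74.4 and 89.5 with BafA at 24 h, against 27.3 and 33.9 in controls. At 4 h Epha3 had 23.2 and 22.8 with BafA, against 23.3 and 23.9 in controls. Its BafA arrays of 24 h lay above all other arrays (log2 fold change 1.42 ± 0.10, adjusted p = 5.31e-11, deposited ratio 3.90, rank 199 from the top). Epha5 moved the other way, with 42.0 and 38.3 with BafA at 24 h, against 102 and 74.8 in controls. At 4 h Epha5 had 31.7 and 35.9 with BafA, against 38.4 and 34.6 in controls, which overlapped. The late controls were therefore the high group, and the late BafA arrays stood nearer to the 4 h arrays (log2 fold change -1.12 ± 0.12, adjusted p = 7.92e-08, deposited ratio 0.368).

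Epha4, which binds ligands of both ephrin classes, had 45.3 and 39.0 with BafA at 24 h, against 68.0 and 52.6 in controls (log2 fold change -0.51 ± 0.12, adjusted p = 0.00173). It had 50.5 and 52.4 with BafA at 4 h, against 42.8 and 37.7 in controls, a log2 fold change of 0.36 ± 0.12 that did not pass (adjusted p = 0.156). BafA arrays were thus below controls at 24 h and above them at 4 h. The 24 h call was lost without BafA 24h replicate 2 (adjusted p = 0.0713), and without control 24h replicate 1 the log2 fold change fell to -0.32, still called (adjusted p = 0.0284). The remaining EphA calls were small. Epha7 had 16.3 and 17.0 with BafA at 24 h, against 14.1 and 14.6 in controls (log2 fold change 0.22 ± 0.05, adjusted p = 0.00177). Epha2 had 17.2 and 17.5, against 15.4 and 16.0 (0.14 ± 0.05, adjusted p = 0.0430), and its call was lost in 6 of 8 fits that left out 1 array, with adjusted p up to 0.301, and also with scan setting as a block (0.0836) and with the 6 arrays of 1 scan setting (0.263). The scanner headers give array 1 of the controls at each time other gain slopes than these 6 arrays. The slopes were read as a scan setting here, although their meaning is not stated. Both receptors had deposited means under 10, the dim end of the scale. Epha1, Epha6, Epha8 and Epha10 did not pass.

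The 5 ephrin-A ligands were divided as well, with 2 higher and 2 lower at 24 h (80%, against 27.3% of all probes). Efna1, the brightest of them, had 35.9 and 38.2 with BafA at 24 h, against 63.6 and 71.4 in controls. At 4 h Efna1 had 145 and 109 with BafA, against 170 and 181 in controls. BafA arrays were below controls at both times, and only the 24 h difference passed (log2 fold change -0.86 ± 0.14, adjusted p = 3.07e-05; at 4 h -0.48 ± 0.14, adjusted p = 0.0830). Efna3 had 21.0 and 23.5 with BafA at 24 h, against 17.9 and 17.9 in controls (0.31 ± 0.07, adjusted p = 0.00104). Efna4 had 38.0 and 43.8, against 32.1 and 34.6 (0.29 ± 0.09, adjusted p = 0.0223), and Efna2 had 19.4 and 20.0, against 25.2 and 21.6 (-0.25 ± 0.07, adjusted p = 0.0131). These 3 calls were the less stable ones. Without BafA 24h replicate 2 the adjusted p was 0.0605 for Efna3, 0.309 for Efna4, whose log2 fold change was then 0.19, and 0.0643 for Efna2. Without control 24h replicate 1 it was 0.063 for Efna4 and 0.26 for Efna2, whose log2 fold change was then -0.13 (0.174 with the 6 arrays of 1 scan setting), and without BafA 24h replicate 1 it was 0.121 for Efna2. Efna5 did not pass.

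Among the B class, Efnb2, a ligand that also signals back into the cell carrying it, had 68.5 and 64.7 with BafA at 24 h, against 34.8 and 36.4 in controls. At 4 h Efnb2 had 57.6 and 58.1 with BafA, against 64.6 and 48.2 in controls. The late control arrays were the low group here (log2 fold change 0.90 ± 0.12, adjusted p = 1.74e-06, deposited ratio 2.39). None of the 5 EphB receptors passed at 24 h, against 27.3% of all probes. Ephb2, the brightest guidance gene of all 60 with a deposited mean of 967, had 567 and 670 with BafA at 24 h, against 491 and 512 in controls, which did not overlap but did not pass (log2 fold change 0.30 ± 0.16, adjusted p = 0.192). Efnb1 had 36.2 and 29.7 with BafA at 24 h, against 47.1 and 36.9 in controls, and its log2 fold changes of -0.35 at 24 h and -0.50 at 4 h did not pass (adjusted p = 0.0874 and 0.0925).

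Of the 8 plexins, the semaphorin receptors, 1 rose and 3 fell at 24 h (50%, against 27.3% of all probes). Plxna2, which serves class 6 semaphorins and, with neuropilins, class 3 semaphorins, had 40.0 and 41.7 with BafA at 24 h, against 21.9 and 22.1 in controls. At 4 h it had 21.2 and 22.0 with BafA, against 21.8 and 22.7 in controls. All 6 arrays other than the late BafA ones lay between 21.2 and 22.7 (log2 fold change at 24 h 0.90 ± 0.07, adjusted p = 2.96e-10, deposited ratio 3.06). Plxnd1, the receptor of Sema3e, had 61.8 and 63.1 with BafA at 24 h, against 131 and 124 in controls. At 4 h Plxnd1 had 47.2 and 52.5 with BafA, against 49.8 and 48.0 in controls. As for Epha5, the controls of 24 h were high and the late BafA arrays were closer to the 4 h level (log2 fold change -1.03 ± 0.11, adjusted p = 1.33e-07, deposited ratio 0.441).

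Plxnb1, a receptor of Sema4d, had 44.8 and 49.5 with BafA at 24 h, against 83.8 and 65.0 in controls (log2 fold change -0.65 ± 0.15, adjusted p = 0.00174). Its 4 h signals overlapped, at 102 and 121 with BafA, against 135 and 102 in controls. Plxna3, which pairs with neuropilins for class 3 semaphorins, had 20.9 and 20.3 with BafA at 24 h, against 25.4 and 23.5 in controls (-0.25 ± 0.07, adjusted p = 0.00737). The Plxna3 call was lost without control 24h replicate 1 (adjusted p = 0.0657) and without BafA 24h replicate 2 (0.0894). Plxnb2 was the brightest plexin and did not pass, at 202 and 212 with BafA at 24 h, against 194 and 194 in controls (log2 fold change 0.09 ± 0.15, adjusted p = 0.759). Plxna1, Plxna4 and Plxnb3 did not pass at 24 h either.

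Among their ligands, the 18 semaphorins, 2 rose and 2 fell at 24 h (22.22%, against 27.3% of all probes). The log2 fold changes lay between -0.31 and 0.24, and those of the 14 uncalled ones between -0.12 and 0.16. Semaphorins were not tested against plexins, and several were dim, with deposited ratios of 2.30 for Sema3c, 1.80 for Sema4c and 0.491 for the uncalled Sema3d. Sema4c, a membrane-bound class 4 member, had 18.5 and 20.1 with BafA at 24 h, against 15.8 and 16.7 in controls (0.24 ± 0.06, adjusted p = 0.00177). The secreted Sema3c had 16.0 and 16.0, against 14.0 and 14.1 (0.19 ± 0.06, adjusted p = 0.0214). Sema6a, a transmembrane ligand of Plxna2, had 43.4 and 46.0 with BafA at 24 h, against 54.7 and 55.8 in controls (-0.31 ± 0.10, adjusted p = 0.0218), opposite in sign to its receptor. With the signal around each spot subtracted, the log2 fold change of Sema6a was 0.18 and not called, so the opposite sign depended on the background correction. Sema6d had 39.5 and 42.8, against 59.3 and 43.5 (-0.30 ± 0.11, adjusted p = 0.0436). All 4 calls were lost in at least 1 of the fits that left out an array. Without BafA 24h replicate 2 the adjusted p was 0.0606 for Sema4c, 0.107 for Sema3c and 0.102 for Sema6d. Without BafA 24h replicate 1 it was 0.105 for Sema3c, 0.126 for Sema6a and 0.281 for Sema6d, and Sema3c was also lost without control 24h replicate 1 (0.0696) and Sema6a without control 24h replicate 2 (0.0609). Sema6d rested on 1 library, control 24h replicate 1, which has the other scan setting, since its log2 fold change was -0.08 without it (adjusted p = 0.731) and -0.53 without control 24h replicate 2. It was also lost without control 4h replicate 1 (0.0543) or control 4h replicate 2 (0.0533), with scan setting as a block (0.170) and with the 6 arrays of 1 scan setting (0.684). Sema4a was the brightest semaphorin in normalized signal over the 4 groups and had 117 and 121 with BafA at 24 h, against 116 and 119 in controls (log2 fold change 0.02 ± 0.14, adjusted p = 0.952).

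No Slit or Robo passed at 24 h or 4 h, against 27.3% and 2.23% of all probes. Slit3, the brightest of 3 Slits, had 21.1 and 21.6 with BafA at 24 h, against 21.9 and 21.0 in controls. Robo2, the brightest of 3 Robos, had 33.0 and 38.1, against 37.7 and 28.8, with overlapping arrays (log2 fold change 0.105 ± 0.099, adjusted p = 0.519). The Slit log2 fold changes at 24 h lay between -0.06 and 0.06, and Robo2 had the largest of the Robos.

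Calls were also counted by signal level. Of the 60 genes, 23 (38.33%) had a deposited mean under 10, against 29.43% of all probes tested. Of these 23, 3 were called at 24 h, against 4 of 10 genes with a mean between 10 and 25 and 12 of 27 above 25. The same shares over all probes were not counted, so these counts are not read as a trait of guidance genes. The offset of the background correction draws dim genes together, so their log2 fold changes tend to be smaller than those of the deposited values. Whether the dim genes changed more than shown was not tested. Subtraction of the signal around each spot left 2 calls at 24 h, Unc5b (log2 fold change 1.88, adjusted p = 0.00272) and Epha3 (1.26, adjusted p = 0.00252), and 187 over all probes. Fits that left out an array leave 1 array in a group, so their counts are not read as a trait of guidance genes.

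At 4 h, Ntn4 alone of the 60 guidance genes passed (1.67%, against 2.23% of all probes). An unadjusted p under 0.05 was found for 6 of 60, against 9.9% of all probes. Both shares were near those of all probes. Uncalled log2 fold changes reached -0.50 (Efnb1) and 0.36 (Epha4), so genes without a call were not shown to be unchanged. Over all probes 1.13% were called higher and 1.09% lower, and the 2-fold rule took 0 guidance genes, against 0.923% of all probes. The effect at 24 h minus the effect at 4 h was tested directly. It was positive for 7 genes and negative for 4, against 7.38% and 7.3% of all probes. The positive ones were Unc5b (1.87 ± 0.17, adjusted p = 1.99e-08), Epha3 (1.46 ± 0.14, adjusted p = 4.84e-08), Plxna2 (0.94 ± 0.10, adjusted p = 1.47e-07), Efnb2 (0.85 ± 0.17, adjusted p = 0.000739), Sema4c (0.33), Sema3c (0.26) and Epha7 (0.23). The negative ones were Plxnd1 (-1.05 ± 0.16, adjusted p = 3.94e-05), Epha5 (-1.01 ± 0.17, adjusted p = 0.00013), Epha4 (-0.86 ± 0.17, adjusted p = 0.000587) and Efna2 (-0.32). The 7 whose SE is given kept the call in every fit that left out 1 array. For Efna1 the difference did not pass (-0.39 ± 0.20, adjusted p = 0.238).

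**Figure D3:**
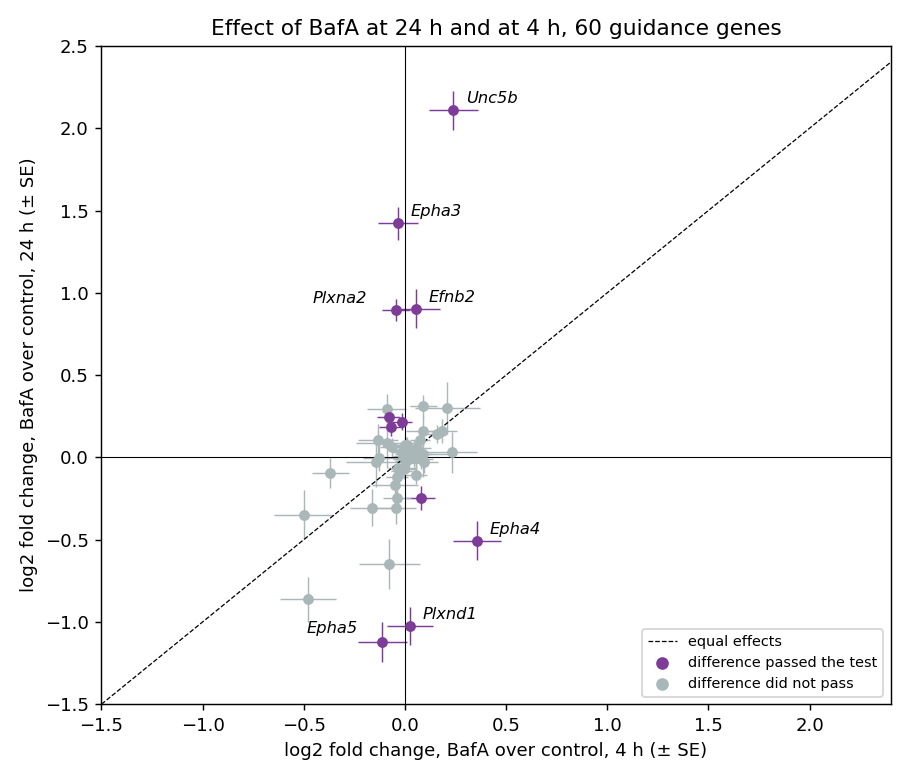
Log2 fold change of BafA over control at 24 h (vertical axis) against that at 4 h (horizontal axis) for the 60 guidance genes, with bars of 1 SE; purple points passed the test of the difference, grey points did not, and the dashed line marks equal effects. Unc5b, Epha3, Plxna2, Efnb2, Epha4, Plxnd1 and Epha5 lie off the line, and effects at 4 h stay between -0.50 and 0.36.

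Control qNSCs themselves differed between 24 h and 4 h after the medium change. Of the 60 genes, 9 were higher and 7 lower at 24 h, against 18.8% and 14.2% of all probes. This comparison shares the control arrays of 24 h with the BafA comparison of 24 h, so values of both are given only side by side. Sema3a, a secreted repellent, had 169 and 139 in controls at 24 h, against 56.5 and 45.8 at 4 h (log2 fold change 1.59 ± 0.15, adjusted p = 1.03e-08). With BafA at 24 h it had 172 and 131, which spanned the controls of that time (-0.03 ± 0.15, adjusted p = 0.926). Sema3a was thus high at 24 h with or without BafA.

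Sema3c went the other way in controls, with 14.0 and 14.1 at 24 h, against 26.7 and 27.4 at 4 h (-0.94 ± 0.06, adjusted p = 1.94e-11), and Ntn4 had 23.8 and 18.9, against 44.7 and 38.5 (-0.97 ± 0.09, adjusted p = 1.29e-08). Plxnb3 had 106 and 96.0, against 57.8 and 54.7 (0.84 ± 0.12, adjusted p = 9.75e-06). For these 3 the late BafA arrays were nearer to the late controls than to the early ones, although Sema3c passed the BafA test at 24 h, at 16.0 and 16.0 for Sema3c, 20.1 and 19.7 for Ntn4, and 95.7 and 111 for Plxnb3. Plxnd1 was higher in late controls by 1.38 ± 0.11 (adjusted p = 1.44e-09) and Epha5 by 1.26 ± 0.12 (adjusted p = 1.62e-08), against BafA effects at 24 h of -1.03 and -1.12. Efnb2 changed by -0.65 ± 0.12 in controls over time (adjusted p = 0.000137), against a BafA effect of 0.90. Efna1 and Plxnb1 fell in controls by 1.38 ± 0.14 (adjusted p = 3.60e-08) and 0.67 ± 0.15 (adjusted p = 0.00114), and their BafA effects at 24 h were -0.86 and -0.65. The Plxnb1 difference in controls was lost without control 4h replicate 1 (adjusted p = 0.0588). Unc5b and Plxna2 did not differ by the test between control times, with log2 fold changes of -0.02 each.

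Co-receptors, other cues and cytoplasmic effectors of guidance signalling formed a second list of 72 genes, of which 65 were measured. At 24 h, 9 rose and 7 fell (24.62% of the list, against 27.3% of all probes). The decreases included Cntn1, an adhesion receptor of the contactin family, with 34.7 and 28.9 with BafA, against 128 and 76.9 in controls (log2 fold change -1.65 ± 0.19, adjusted p = 1.87e-07). Dpysl3, a collapsin response mediator of the cytoskeleton, had 459 and 571, against 959 and 1051 (-0.97 ± 0.16, adjusted p = 3.88e-05). Limk2, a kinase of cofilin, had 103 and 105, against 172 and 167 (-0.70 ± 0.14, adjusted p = 0.000570). Draxin, a secreted repellent that binds netrin receptors, fell by 0.53 (adjusted p = 8.73e-05). The increases included Ptk2, the focal adhesion kinase (0.56 ± 0.13, adjusted p = 0.00182), Rasa1, a Ras GTPase activator bound by Eph receptors (0.52 ± 0.14, adjusted p = 0.00723, and 0.0653 without BafA 24h replicate 2), and Ngef, an Eph-linked exchange factor (0.51 ± 0.11, adjusted p = 0.00115). Nrp1, the class 3 semaphorin co-receptor, had 26.2 and 31.5, against 29.4 and 26.4, and did not pass (adjusted p = 0.802). At 4 h Met, the partner of B plexins, was the 1 gene called, with 38.8 and 41.8 with BafA, against 29.8 and 30.8 in controls (0.41 ± 0.08, adjusted p = 0.00596), and its call was lost without control 4h replicate 1 (0.0856) or BafA 4h replicate 2 (0.0681). In the difference of the effects 1 was positive and 7 negative, against 7.38% and 7.3% of all probes, and in controls over time 12 were higher and 16 lower, against 18.8% and 14.2%.

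Markers of the cells moved in the same comparison, in which 27.3% of all probes were called in either direction. No marker list was tested against that share. Of 13 stem cell and astrocyte markers measured, 4 rose and 6 fell at 24 h, with log2 fold changes of 2.02 for Nes and -2.12 for Gfap. Of 10 neuron and neuroblast markers, 1 rose and 5 fell, and the summed signal was 560 and 699 with BafA at 24 h, against 784 and 1151 in controls. Much of that sum was Gap43, which did not pass (adjusted p = 0.342), and without it the sums were 199 and 201, against 396 and 444. Tubb3 had a log2 fold change of -2.22 and Dcx of -0.81, whereas Snap25 was the 1 that rose (0.27, adjusted p = 0.00193). Map2, Syp and Nefl did not pass. Of 7 oligodendrocyte lineage markers, 1 rose (Olig2, 1.66) and 2 fell (Cnp, -0.77, and Cspg4, -0.34). The sums over the 7 were 2692 and 2617, against 2394 and 2014. Much of these sums was Olig1, with 1838 and 1719, against 1639 and 1356, which did not pass (adjusted p = 0.398). Of 5 mural cell and fibroblast markers, 0 rose and 2 fell (Acta2 and Col1a1), with sums of 111 and 111, against 321 and 312. Most of that fall was Acta2, with 28.5 and 30.1, against 227 and 211, and Pdgfrb, Rgs5 and Col1a2 did not pass. The 4 microglial markers and the 1 endothelial marker, Cdh5, did not pass. The 2 arrays of a group correlated at 0.995 to 0.9977 in log2 signal. The part of these markers in the guidance gene results was not tested. At 24 h, 17 guidance genes were called with scan setting as a block (9 higher and 8 lower). The share of all probes called in that fit is not given, so the count is not read as a trait of guidance genes.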

How the data were processed

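RNA of 8 samples was hybridised to single-colour oligonucleotide arrays (3D-Gene), 2 per group. The authors deposited the scanner output, with the intensity of each spot and of its surround on a linear scale, and 1 table of intensity values brought to a median of 25 on every array. Python 3.11.15 served to parse the scanner values, and limma 3.58.1 (R 4.3.3) to fit them. Background was corrected with normexp (offset 50, all spots), control spots were removed, the median of every array was set to 25, and log2 was taken. The resulting value is called the normalized signal. Of 23473 gene probes, the 20473 with a deposited value on all 8 arrays were tested, with 1 coefficient per group and a variance trend (residual df 4, prior df 19.3). P-values were adjusted by Benjamini-Hochberg over all probes, with a threshold of 0.05. With 2 arrays a group, exact permutation cannot reach a two-sided p under 0.33 and was not used for single genes. The fit was also run on simulated arrays with known changes, drawn from the means and spread of the main fit. Such arrays meet the assumptions of the fit, so they cannot show whether the real arrays do.

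Gene symbols came from the platform annotation, and 1 symbol (Ntn2l) has since changed. The brightest probe stood for a gene. Genes named in the text were those called at 4 h or for the difference of the effects, up to 5 called genes per family at 24 h, the brightest gene per family, the control genes with the largest changes over time, and the strongest genes of the second list; further genes were named to account for a family. Members and lists were chosen with earlier results of these data known. Precision is limited by the number of arrays. Alternatives covered background, scaling, filters, scan setting, replicate blocks and arrays left out. Promoters came from RefSeq (GRCm38.p6) and were found for 52 of the 60 genes. Cross-hybridisation between related genes was not checked.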

Additional observations from a re-analysis of the deposited data

Results flagged for a closer look

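For 11 guidance genes the effect of BafA at 24 h differed from that at 4 h by the test of the difference itself, in log2 units of the effect at 24 h minus the effect at 4 h. The differences were 1.87 for Unc5b, 1.46 for Epha3, 0.94 for Plxna2, 0.85 for Efnb2, 0.33 for Sema4c, 0.26 for Sema3c and 0.23 for Epha7, and -1.05 for Plxnd1, -1.01 for Epha5, -0.86 for Epha4 and -0.32 for Efna2. Those of Efna2, Epha7, Sema3c and Sema4c were lost in at least 1 fit that left out an array. Subtraction of the signal around the spot left none of the 11 past the threshold, with adjusted p = 0.0702 for Unc5b and 0.0749 for Epha3, and 4 calls over all probes.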

How the results depend on the processing

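Of the named results of single genes under the alternatives, 981 values kept direction and side of the threshold, 159 kept direction and lost the call, and 8 reversed. All 8 reversals came with subtraction of the signal around the spot: at 24 h Epha4 (0.149), Epha7 (-0.009), Sema3c (-0.041) and Sema6a (0.18), for the difference of effects Epha4 (0.021), Neo1 (0.003) and Sema3c (-0.137), and for controls over time Efna1 (0.532). The cause was not tested. That subtraction called 2 guidance genes at 24 h in place of 19, 0 at 4 h in place of 1, 0 for the difference in place of 11 and 0 for controls in place of 16, and 0 of the second list in place of 16, 1, 8 and 28. Over all probes it called 187 in place of 5595, 0 in place of 456, 4 in place of 3006 and 8 in place of 6765. With a mean signal over 50, which keeps 12 guidance genes, the calls were 6, 0, 3 and 7 for the guidance genes, 0 at 4 h and 9 in controls for the second list, and 2950, 191, 1612 and 3540 over all probes, of 7243 tested. The 2-fold rule took 10 guidance genes at 24 h and 0 at 4 h. Without a variance trend the difference gave 7 guidance genes, 4 h gave 0 for both lists, and 132 probes were called at 4 h. At 4 h the guidance count was 0 with deposited values as log2 or log2(value + 10) and with quantile normalization, 2 without the filter on missing values, and 4 with the 6 arrays of 1 scan setting or with the arrays of the comparison only. With scan setting as a block it was 1, a higher gene and not Ntn4. The second list gave 0 at 4 h with deposited values on either log scale, 3 with scan setting as a block and with the 6 arrays, and 2 with the arrays of the comparison only, which called 1034 of all probes. Fits that left out 1 array gave 10 to 20 guidance genes at 24 h, 0 to 4 at 4 h, 7 to 14 for the difference and 12 to 16 in controls, and 12 to 21, 0 to 2, 5 to 12 and 21 to 28 for the second list, and at 4 h 229 to 883 of all probes. Each of these fits leaves 1 array in a group, and only the 4 h range stands beside that of all probes. The ranges are therefore not read as a trait of guidance genes. No source says that a replicate number marks a shared culture or day. The deviations of replicate 1 correlated at 0.05 between BafA and control at 24 h, -0.22 at 4 h, 0.28 between the controls of the 2 times, whose first arrays share a scan setting, and 0.32 between the BafA groups, so the numbers were not taken to pair the arrays. With the replicate block, 20, 1, 12 and 16 guidance genes and 18, 1, 9 and 29 of the second list were called, and no named call was lost. Crossed numbers at 4 h, an alternative chosen after seeing the data, gave 0 guidance genes. Counts of this section that stand without the matching count over all probes are not read as a trait of guidance genes. Dim probes limit the precision, since the median spot was 1.57 to 1.72 times the blank spots.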
